A study of Homo sapiens with 10 samples.

Results

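To determine how the genes of the integrated stress response and of the unfolded protein response behaved in cells transfected with toxic siRNAs, 43 genes were followed by symbol through the counts of 10 RNA-seq libraries, out of 58395 genes listed. The list was drawn up by pathway, with earlier results of these data known. Its members were read in 4 roles, which are 14 genes of the amino acid arm of ATF4, 14 stress regulators and other ATF4 targets, 12 genes of the endoplasmic reticulum (ER) chaperone arm and 3 ER stress sensors. All libraries came from parental HeyA8 cells, an established human ovarian cancer line, transfected with siRNA at 10 nM. siNT1, the non-targeting control (S2'OM in the labels), and siGGGGGC were sampled 24 h and 48 h after transfection, and siGGCAGU at 48 h, with 2 libraries in each of the 5 groups. siGGGGGC and siGGCAGU are named after the 6mer seed of their guide strand, and GGCAGU is also the seed of miR-34a-5p. Every group was transfected. The wells kept until 48 h received fresh medium at 24 h, so time after transfection and the change of medium cannot be told apart. The 2 libraries of a group came from duplicate wells of the same line, so each p-value measures the spread between such wells.

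In the integrated stress response, kinases that sense amino acid shortage, ER stress, viral RNA or mitochondrial stress phosphorylate the translation factor eIF2α. General protein synthesis then falls while the mRNA of ATF4 is translated more, and ATF4 switches on genes for the synthesis and import of amino acids together with further regulators such as DDIT3 (CHOP), ATF3 and TRIB3. In the unfolded protein response, the sensors EIF2AK3 (PERK), ERN1 (IRE1) and ATF6 detect misfolded protein in the ER, and XBP1 and ATF6 raise chaperones such as HSPA5 (BiP). Counts per gene show mRNA levels. They show neither phosphorylation of eIF2α nor translation of ATF4 nor splicing of XBP1.

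Total counts per library ranged from 19781445 to 42428986, and the members together took 0.281% to 0.44% of them. The small RNA genes RN7SL2 and SNORD3A took 19.8% to 32.0% of a library. Keratin genes and VIM, which HeyA8 cells express, were detected in every group, and the blood cell genes PTPRC and CD68 had group means of at most 2.99 normalised counts. The endothelial gene PECAM1 had group means of 0.559 to 13.5. Of 9 epithelial and ovarian lineage genes looked up, 7 passed the filter on low counts, and 5 of these fell beyond a log2 fold change of 1 with siGGGGGC at 48 h and 0 rose, with a median of -1.29. Of all genes, 11.0% fell and 10.5% rose beyond 1. With siGGCAGU at 48 h, 2 of the 7 rose and 2 fell, both falls beyond 1, with a median of 0.14. In that comparison 27.8% of all genes rose and 24.9% fell, and 9.62% fell beyond 1. The 3 mesenchymal genes VIM, CDH2 and ZEB1 fell as well with siGGGGGC at 48 h, where 27.5% of all genes fell. KRT8 had a mean of 2214 normalised counts against 6130 with siNT1 and PAX8 103 against 664. The part of these changes in the results was not tested. Between duplicates, the mean squared difference per gene, as a multiple of counting noise, was largest with siGGCAGU (42.5) and siNT1 at 48 h (31.4). It was 2.29 with siNT1 at 24 h. Counts were scaled to library totals for it, so it includes shifts of RN7SL2 and SNORD3A, and it grows with depth. RN7SL2 and SNORD3A took 32.0% and 24.2% of the siGGCAGU duplicates and 19.8% and 23.9% of the siNT1 duplicates at 48 h.

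In siNT1 cells at 24 h, levels per length differed widely among members. In CPM (counts scaled to a common library total) per kilobase of exon, the most abundant were the ER chaperone CALR at 118 and 130 in the 2 libraries, ATF4 at 115 and 118 and HSPA5 at 107 and 121, whose ranges overlapped. PSAT1, the aminotransferase of serine synthesis, followed with 41.6 and 42.8, and SHMT2, the mitochondrial serine hydroxymethyltransferase, with a mean of 40.0. The regulators that moved most later were low, with DDIT3 at 3.13 and 3.82, DDIT4 at 0.694 and 0.738 and ATF3 at 0.471 and 0.592 CPM per kilobase. Of the members, 42 passed the filter on low counts. NUPR1, a small stress-induced regulator, did not, with 0 to 10.7 normalised counts in a library. ASNS, asparagine synthetase, had just 5.95 to 26.9 normalised counts, and 49.3% of its annotated exon bases lie in a long noncoding RNA gene on the same strand, so its level is uncertain. CBS was also low at 11.6 to 39.2, and its near-identical annotated copy makes it uncertain too. Reads were not shown to be counted by strand, and 27.2% of the exon bases of DDIT3 overlap MARS1 on the opposite strand.

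The promoters of the members were searched for a pair of short words. RefSeq windows from 250 bases before to 50 bases after a start site (GRCh38.p14) were found for 39 members, and not for PSPH, SHMT2, ALDH1L2 and NUPR1. The word TGATGNAA, to which pairs of C/EBP and ATF proteins such as ATF4 bind, was searched on both strands and stood in the windows of 8 of the 39 members, against 4.46% of all genes. These were 3 of 11 in the amino acid arm (ASNS, SLC3A2 and SLC7A1), 4 of 13 stress regulators (ATF3, CEBPG, JDP2 and CHAC1) and 1 of 12 in the ER chaperone arm (HERPUD1). The ER stress element, CCAAT and CCACG 9 bases apart, stood in 5 members, all of the ER chaperone arm, against 0.0916% of all genes. These were HSPA5, HSP90B1, CALR, CRELD2 and XBP1, and no member held both words. The roles were not tested against each other, and a match of letters is a description of the window and not a site shown to be bound. The following stretches are from members whose mRNA changed, written on the strand of the gene, with the word in capitals.
SLC3A2, chr11:62881725-62881748, plus strand: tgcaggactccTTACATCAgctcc
ATF3, chr1:212565205-212565234, plus strand: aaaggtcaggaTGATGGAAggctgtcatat
JDP2, chr14:75427995-75428024, plus strand: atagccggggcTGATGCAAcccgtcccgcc
CHAC1, chr15:40953251-40953280, plus strand: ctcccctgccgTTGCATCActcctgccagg
HSPA5, chr9:125241386-125241414, minus strand: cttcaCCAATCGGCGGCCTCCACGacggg
HSP90B1, chr12:103930211-103930239, plus strand: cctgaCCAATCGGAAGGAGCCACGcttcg
CALR, chr19:12938379-12938407, plus strand: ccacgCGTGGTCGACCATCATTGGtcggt
CRELD2, chr22:49918549-49918577, plus strand: cctctCGTGGCGAACTCGGATTGGgccat
XBP1, chr22:28800598-28800626, minus strand: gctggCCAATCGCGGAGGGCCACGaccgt

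At 48 h, cells transfected with siGGGGGC had higher mRNA of most stress regulators and of a majority of the amino acid arm, and lower mRNA of most ER chaperones. Of the 42 members tested, 24 rose and 12 fell at an adjusted p below 0.05, while 27.8% of all 16905 genes tested rose and 27.5% fell. Among the stress regulators, 11 of 13 rose and 1 fell. In the amino acid arm 9 of 14 rose and 3 fell. In the ER chaperone arm 3 of 12 rose and 7 fell. With a log2 fold change beyond 1 as well, 11 members rose and 3 fell, against 10.5% and 11.0% of all genes.

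The largest rises were those of ATF3, DDIT4 and DDIT3. ATF3, a transcription factor of the stress response, had 64.3 and 61.9 normalised counts in the siNT1 libraries at 48 h and 846 and 810 with siGGGGGC, a log2 fold change of 3.71 ± 0.14 (SE, adjusted p = 2.43e-11, edgeR quasi-likelihood test). DDIT4, an inhibitor of mTORC1, went from 37.2 and 30.9 to 329 and 329 (3.28 ± 0.20, adjusted p = 4.06e-09). DDIT3, the factor CHOP, went from 71.3 and 79.6 to 361 and 378 (2.28 ± 0.14, adjusted p = 4.03e-09). In each, both siGGGGGC libraries were far above both control libraries and the duplicates lay close together. CHAC1, which degrades glutathione, rose from 31.8 and 27.5 to 105 and 106 (1.84 ± 0.20, adjusted p = 1.96e-06). PPP1R15A (GADD34), which brings phosphatase to eIF2α and so reverses the response, rose from 2080 and 2106 to 6656 and 7339 (1.74 ± 0.11, adjusted p = 3.98e-09).

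ATF4 itself moved less than ATF3, DDIT4 and DDIT3, and by close to the amino acid arm median of 0.43. The mRNA of ATF4 had 5237 and 5677 normalised counts with siNT1 at 48 h and 7068 and 7203 with siGGGGGC, a log2 fold change of 0.39 ± 0.09 (adjusted p = 0.00162). TRIB3, a pseudokinase that curbs ATF4, rose from 334 and 316 to 556 and 637 (0.88 ± 0.13, adjusted p = 2.68e-05). The C/EBP factor CEBPB rose by 1.45 ± 0.10, the stress sensor of amino acids SESN2 by 1.18 ± 0.12, the lipoprotein receptor VLDLR by 0.63 ± 0.20 and CEBPG by 0.26 ± 0.10 on the log2 scale. JDP2, a repressor of the AP-1 family, was the regulator that fell, from 112 and 95.7 to 69.3 and 76.6 (-0.50 ± 0.18, adjusted p = 0.0285). STC2, a secreted glycoprotein induced by ER stress, had a log2 fold change of 0.08 with a 95% interval of -0.11 to 0.27. JDP2 lost its call when siNT1 replicate 1 at 48 h or either siGGGGGC library at 48 h was left out, with log2 fold changes between -0.62 and -0.39 over all libraries left out, and DESeq2 did not call it (adjusted p = 0.102).

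In the amino acid arm, 3 of the 4 transporters rose and 1 fell, while 27.8% of all genes rose and 27.5% fell. SLC3A2, the heavy chain shared by several amino acid exchangers, had 3684 and 3528 normalised counts with siNT1 and 7579 and 7988 with siGGGGGC (log2 fold change 1.11 ± 0.09, adjusted p = 6.06e-08). SLC7A5, its partner in the import of leucine, had 1347 and 931 with siNT1 and 2157 and 2344 with siGGGGGC (0.99 ± 0.14, adjusted p = 2.28e-05). SLC38A2, a sodium-coupled transporter of neutral amino acids, rose by 0.69 ± 0.08 (adjusted p = 5.12e-06). SLC7A5 was thus higher in both siGGGGGC libraries although its control libraries differed from each other. Of the enzymes, CTH, which makes cysteine, rose from 82.1 and 83.6 to 160 and 156 (0.93 ± 0.17, adjusted p = 0.000294). PHGDH, the first enzyme of serine synthesis, rose from 1179 and 1209 to 1915 and 2219 (0.79 ± 0.11, adjusted p = 1.31e-05). SHMT2 rose by 0.51 ± 0.09, PSAT1 by 0.34 ± 0.12 (adjusted p = 0.0199) and the one-carbon enzyme MTHFD2 by 0.28 ± 0.10, while PSPH, the last enzyme of serine synthesis, had -0.02 ± 0.10. ASNS, at the low counts given above, had a log2 fold change of 1.02 ± 0.37 (adjusted p = 0.0278), which DESeq2 did not call (adjusted p = 0.139).

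The falls in the amino acid arm were of a transporter and of mitochondrial enzymes. ALDH1L2, a mitochondrial enzyme of folate metabolism, fell from 107 and 92.2 normalised counts to 38.0 and 37.3 (log2 fold change -1.39 ± 0.22, adjusted p = 7.71e-05). SLC7A1, the importer of arginine and lysine, fell from 3455 and 2104 to 1314 and 1446 (-1.01 ± 0.16, adjusted p = 6.47e-05), and its 2 control libraries stood far apart. Without siNT1 replicate 1 at 48 h its log2 fold change was -0.61, and without replicate 2 it was -1.32. PCK2, the mitochondrial carboxykinase, fell from 184 and 205 to 141 and 148 (-0.43 ± 0.13, adjusted p = 0.0128), which DESeq2 did not call (adjusted p = 0.0535). The call of PCK2 was lost without siNT1 replicate 2 or siGGGGGC replicate 1 at 48 h and those of PSAT1 without any of the 4 libraries in turn, with log2 fold changes of -0.50 to -0.34 and 0.33 to 0.35. ASNS lost its call without either siNT1 library or siGGGGGC replicate 2 at 48 h, with log2 fold changes of 0.84 to 1.17.

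**Figure D1:**
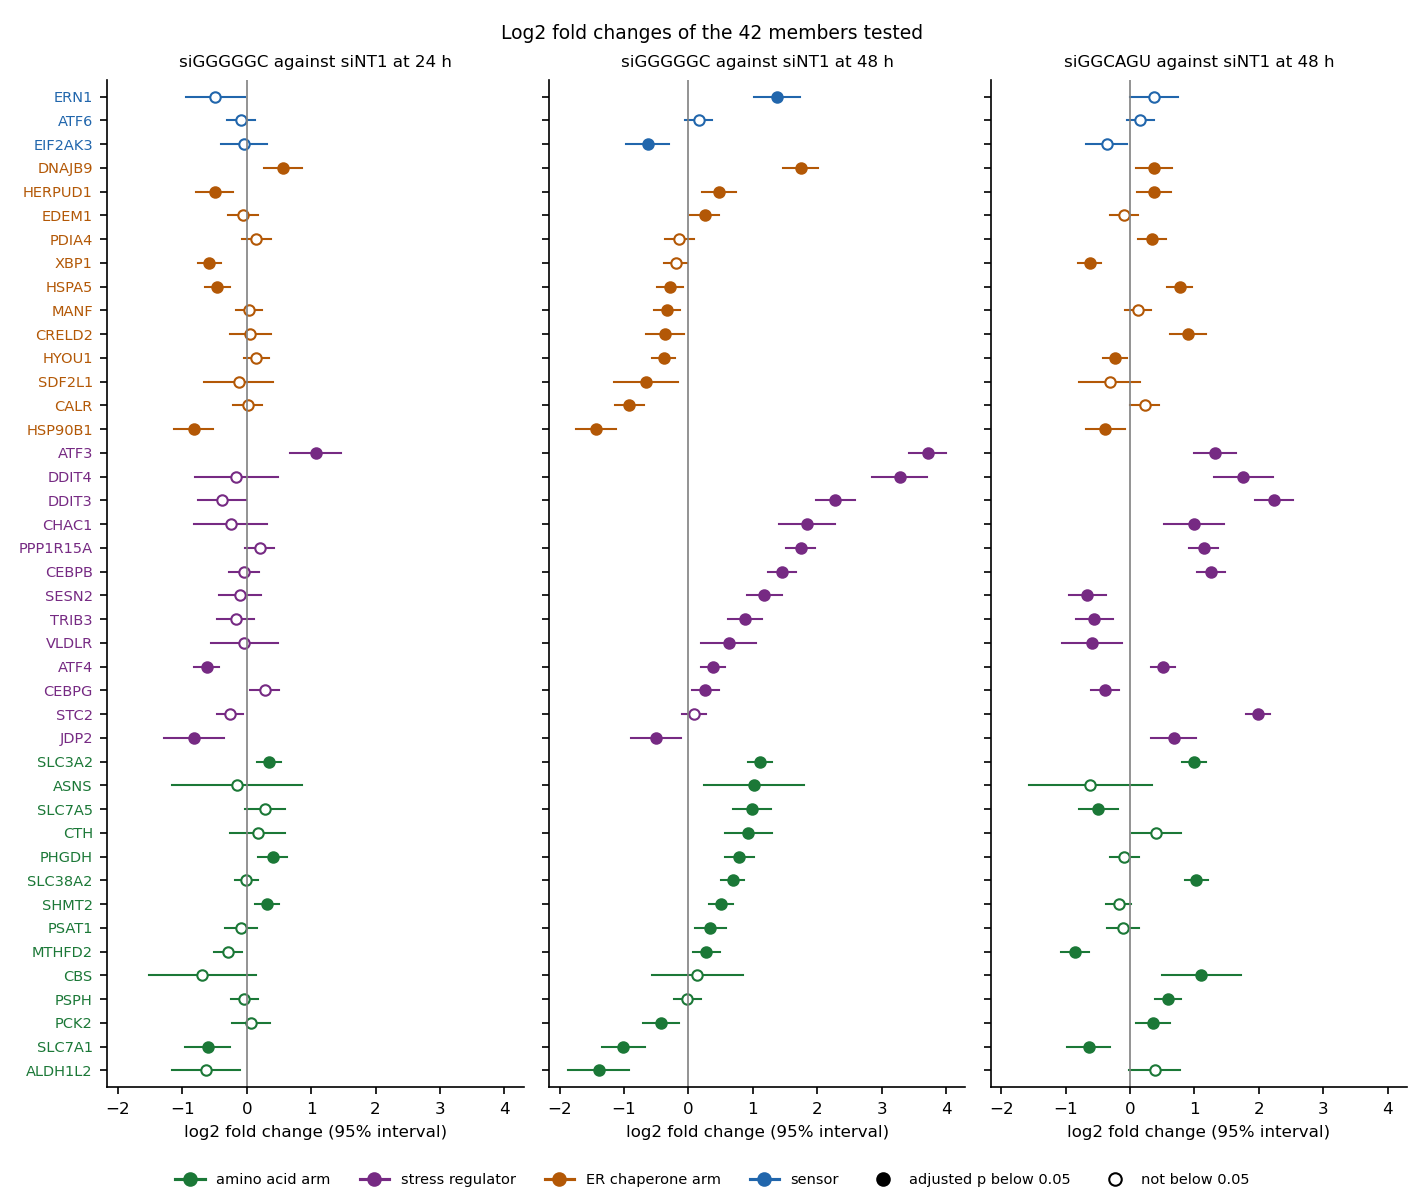
Log2 fold change of each of the 42 members tested (points, filled where the adjusted p was below 0.05) with its 95% interval (lines) for each siRNA against siNT1 at the same time, coloured by role and ordered within a role by the change with siGGGGGC at 48 h. At 48 h siGGGGGC raised 11 of 13 stress regulators and lowered 7 of 12 members of the ER chaperone arm, while siGGCAGU raised HSPA5 and CRELD2. With siGGGGGC at 48 h, 27.8% of all genes tested rose and 27.5% fell.

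In the ER chaperone arm, HSP90B1 and CALR had the largest falls. HSP90B1 (GRP94), the HSP90 of the ER, had 13290 and 13269 normalised counts with siNT1 at 48 h and 5212 and 4609 with siGGGGGC (log2 fold change -1.44 ± 0.14, adjusted p = 6.74e-07). CALR, the calcium-binding chaperone of glycoproteins, fell from 8214 and 8347 to 4435 and 4339 (-0.92 ± 0.11, adjusted p = 2.9e-06). HSPA5, the master chaperone, fell from 11585 and 10656 to 9018 and 9239 (-0.28 ± 0.09, adjusted p = 0.0159). Both siGGGGGC libraries were below both controls for each of the 3, with the smallest change in HSPA5. SDF2L1 (-0.66 ± 0.23), HYOU1 (-0.39 ± 0.09), CRELD2 (-0.37 ± 0.14) and MANF (-0.33 ± 0.09) fell as well. The disulfide isomerase PDIA4 had -0.14 ± 0.10 (adjusted p = 0.27) and XBP1, the transcription factor of the IRE1 branch, -0.20 ± 0.08 (adjusted p = 0.056). XBP1 was called lower by edgeR with no filter (adjusted p = 0.0206), a mean count of at least 50 (0.0396) and protein-coding genes alone (0.0314).

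Against the direction of the arm, DNAJB9 (ERdj4), a cochaperone of HSPA5, rose from 204 and 162 to 642 and 579 normalised counts (1.75 ± 0.13, adjusted p = 2.29e-08). HERPUD1, a membrane protein of ER-associated degradation, rose from 692 and 616 to 918 and 905 (0.48 ± 0.12, adjusted p = 0.00425). EDEM1, a lectin of the same pathway, had 1120 and 883 with siNT1 and 1194 and 1191 with siGGGGGC (0.25 ± 0.10, adjusted p = 0.0493), and it was not called by DESeq2 (adjusted p = 0.081). The call of EDEM1 was lost without siNT1 replicate 2 or either siGGGGGC library at 48 h, with log2 fold changes of 0.09 to 0.43. HSPA5 lost its call without siNT1 replicate 1 or either siGGGGGC library (-0.34 to -0.22), and so did SDF2L1 (-0.81 to -0.50). The number of ER chaperone members called was 10 with all libraries. It was lower without any single library of the comparison, and so was the number of all genes called. Among the sensors, ERN1 rose from 119 and 97.4 to 282 and 279 (1.38 ± 0.17, adjusted p = 5.38e-06), EIF2AK3 fell from 198 and 198 to 133 and 122 (-0.63 ± 0.15, adjusted p = 0.00266), and ATF6 had 0.16 ± 0.10 (adjusted p = 0.191).

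**Figure D2:**
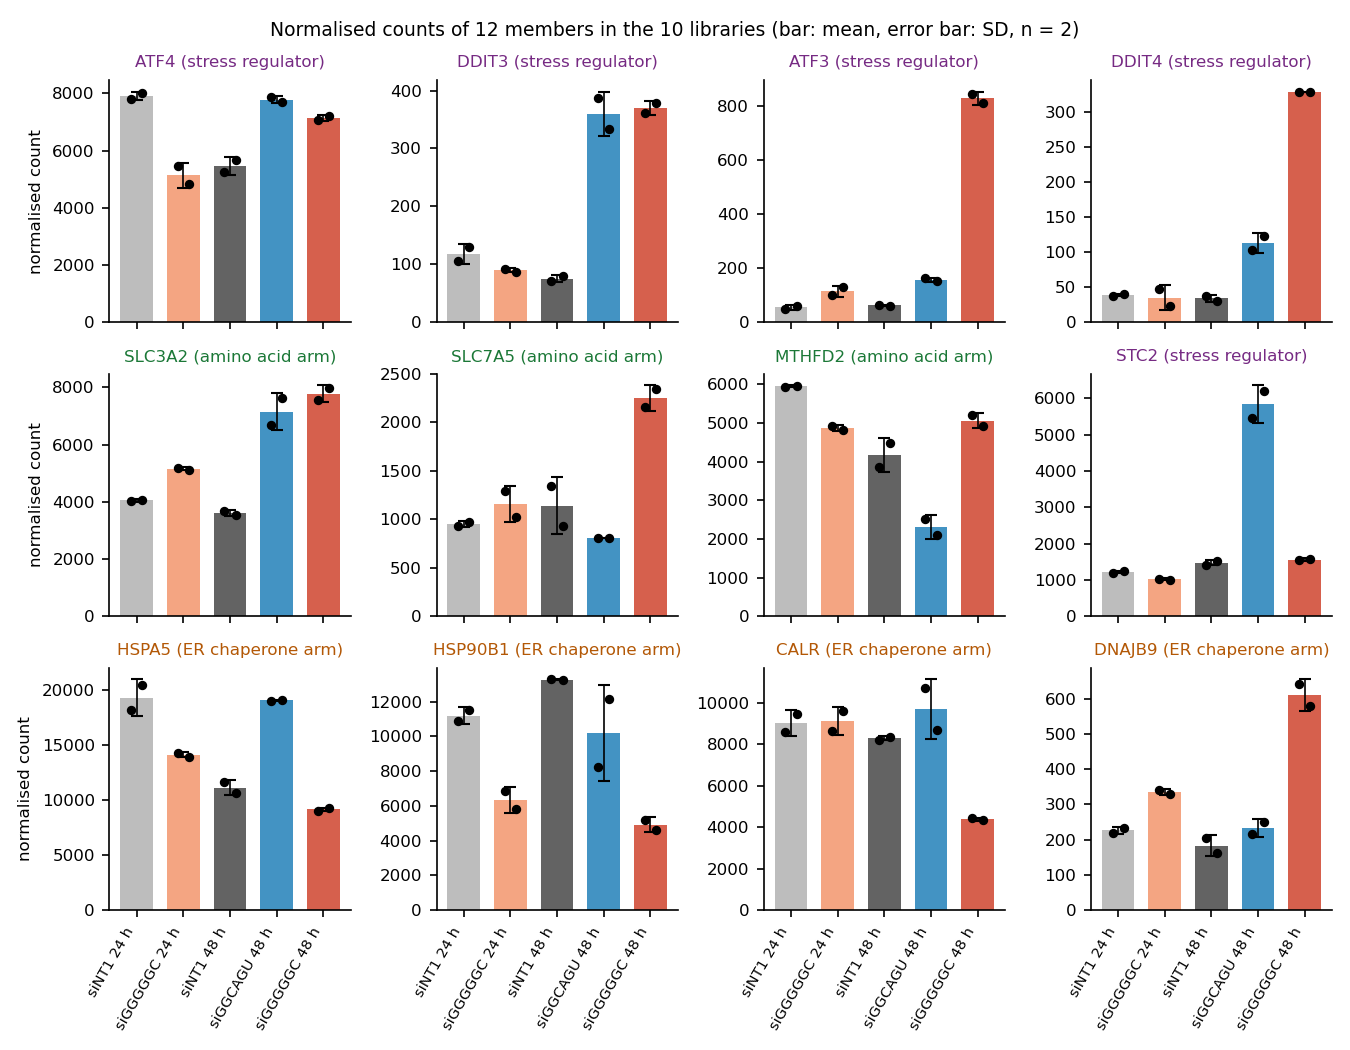
Normalised counts (axis from 0) of 12 members in every library (points), with the mean (bar) and SD (error bar) of the 2 libraries of each group. ATF3 reached 846 and 810 with siGGGGGC at 48 h against 164 and 153 with siGGCAGU, whereas HSPA5 stood at 19013 and 19024 with siGGCAGU and 9018 and 9239 with siGGGGGC.

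Set side by side, the 2 arms moved apart with siGGGGGC at 48 h. The median log2 fold change was 0.43 over the 14 members of the amino acid arm and -0.31 over the 12 of the ER chaperone arm, a difference of 0.73, and the median of all genes tested was -0.01. The stress regulators had a median of 1.18. Taken per library against the siNT1 mean, the amino acid arm had medians of 0.42 and 0.43 in the 2 siGGGGGC libraries and the ER chaperone arm had -0.31 and -0.30, so that neither arm overlapped its control libraries. No test was made of a list. The difference of the medians lay between 0.66 and 0.83 when single libraries were left out.

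**Figure D3:**
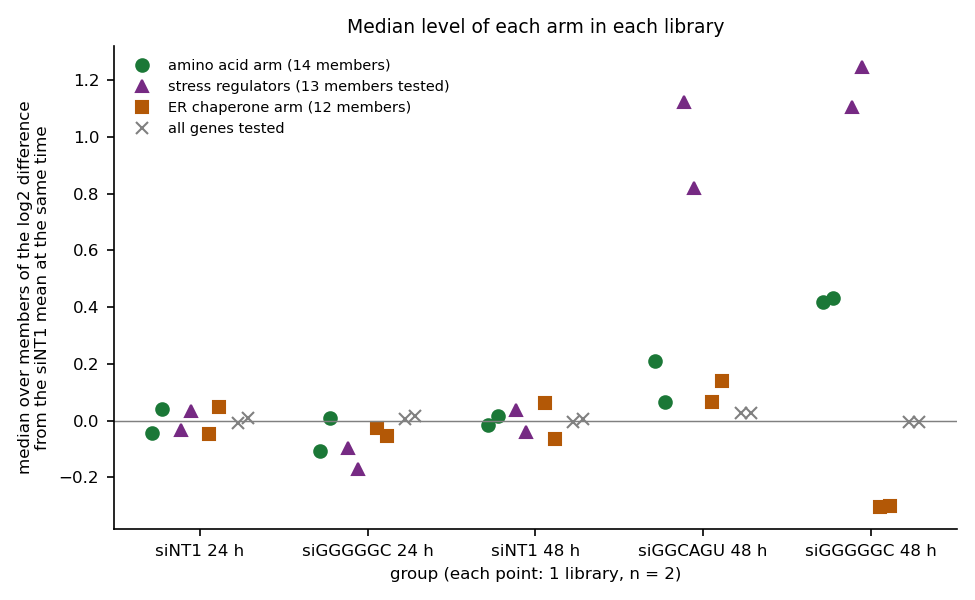
Median over members, in each library (points, 2 a group), of the log2 difference from the mean of the siNT1 libraries at the same time, for 3 roles and for all genes tested. With siGGGGGC at 48 h the amino acid arm stood at 0.42 and 0.43 and the ER chaperone arm at -0.31 and -0.30, whereas with siGGCAGU they stood at 0.21 and 0.06 and at 0.07 and 0.14.

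To see whether the other toxic siRNA acted on the same genes, siGGCAGU was compared with the same siNT1 libraries at 48 h, so the comparisons share their controls. With siGGCAGU, 19 of 42 members rose and 10 fell, while 27.8% of all genes rose and 24.9% fell. Beyond a log2 fold change of 1, 8 members rose and 0 fell, against 10.7% and 9.62% of all genes. Of the 13 stress regulators tested, 9 rose and 4 fell. The amino acid arm was split, with 5 rises and 3 falls among 14, and the ER chaperone arm held 5 rises and 3 falls among 12. The number of ER chaperone members called was 3 when the 4 compared libraries were fitted alone. In that fit 7587 of 16756 genes were called, against 8906 of 16905 with the 10 libraries. Without siNT1 replicate 1 at 48 h, fewer of the amino acid arm and fewer of all genes were called.

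DDIT3 and STC2 led. DDIT3 had 387 and 333 normalised counts with siGGCAGU, a log2 fold change of 2.24 ± 0.14 (adjusted p = 3.97e-09). STC2 had 5463 and 6200 against 1420 and 1527 with siNT1 (1.99 ± 0.09, adjusted p = 1.24e-10). DDIT4 had 103 and 124 (1.76 ± 0.22, adjusted p = 5.9e-06). Both libraries were above both controls in each of these genes. ATF3 had 164 and 153 (1.32 ± 0.15, adjusted p = 2.58e-06), CHAC1 66.7 and 52.8 (0.99 ± 0.22, adjusted p = 0.00126) and ATF4 7863 and 7704 (0.51 ± 0.09, adjusted p = 0.000159). CEBPB rose by 1.26 ± 0.10, PPP1R15A by 1.14 ± 0.11 and JDP2 by 0.68 ± 0.16. Of the same role, 4 members fell instead. SESN2 had 183 and 161 normalised counts (-0.66 ± 0.14, adjusted p = 0.00075) and TRIB3 251 and 196 (-0.56 ± 0.14, adjusted p = 0.00266). VLDLR had 43.2 and 61.7 (-0.59 ± 0.22, adjusted p = 0.0334) and CEBPG fell by 0.39 on the log2 scale. TRIB3 lost its call without siGGCAGU replicate 2 (-0.37) and VLDLR without siNT1 replicate 1 or siGGCAGU replicate 1 (-0.39 and -0.40). DESeq2 did not call VLDLR either (adjusted p = 0.0651).

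Of the 4 transporters of the amino acid arm, 2 rose and 2 fell, while 27.8% of all genes rose and 24.9% fell. SLC38A2 had 14863 and 14139 normalised counts with siGGCAGU against 7031 and 7167 with siNT1 (1.03 ± 0.08, adjusted p = 6.54e-08). SLC3A2 had 6688 and 7615 (0.99 ± 0.09, adjusted p = 1.71e-07). PSPH had 774 and 742 against 483 and 518 (0.60 ± 0.10, adjusted p = 8.37e-05). The low CBS rose as well, from 16.3 and 19.5 to 39.2 and 38.7, and PCK2 by 0.35 ± 0.12. MTHFD2 fell from 3862 and 4473 to 2516 and 2091 (-0.86 ± 0.10, adjusted p = 3.88e-06). SLC7A1 had 1844 and 1711 (-0.64 ± 0.16, adjusted p = 0.00271) and SLC7A5 807 and 806 (-0.49 ± 0.14, adjusted p = 0.00856). Both of the latter lost their call without siNT1 replicate 1 at 48 h, with -0.24 for SLC7A1 and -0.21 for SLC7A5. The serine enzymes PHGDH (-0.09 ± 0.11, adjusted p = 0.527) and PSAT1 (-0.10 ± 0.12, adjusted p = 0.488) and the low ASNS (-0.62 ± 0.45, adjusted p = 0.269) were not called. PSAT1 was called lower without siGGCAGU replicate 1 (-0.32, adjusted p = 0.0119).

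Part of the ER chaperone arm differed from its course with siGGGGGC at 48 h. HSPA5 and CRELD2 were called in opposite directions with the siRNAs. DNAJB9 and HERPUD1 rose with both, and HSP90B1 and HYOU1 fell with both. PDIA4 and XBP1 were called with siGGCAGU and not with siGGGGGC. HSPA5 had 19013 and 19024 normalised counts with siGGCAGU (log2 fold change 0.77 ± 0.09, adjusted p = 4.01e-06). Its level in siNT1 cells had fallen since 24 h, and both siGGCAGU libraries lay within the range of the siNT1 libraries of 24 h. CRELD2, a small disulfide isomerase of the ER, had 421 and 512 against 271 and 233 (0.90 ± 0.13, adjusted p = 2.76e-05). PDIA4 (0.34 ± 0.10) and DNAJB9 (0.37 ± 0.13) also rose, and HERPUD1 had 705 and 975 (0.37 ± 0.12, adjusted p = 0.0202). XBP1 fell from 1124 and 1099 to 735 and 704 (-0.63 ± 0.08, adjusted p = 1.25e-05). HYOU1 had 1429 and 1395 (-0.23 ± 0.09, adjusted p = 0.0368) and HSP90B1 8214 and 12136 (-0.38 ± 0.14, adjusted p = 0.0323). The duplicates of HSP90B1 and HERPUD1 stood apart. HSP90B1 lost its call without either siNT1 library or siGGCAGU replicate 1 (-0.69 to -0.13 over all libraries left out), HERPUD1 without siNT1 replicate 2 or siGGCAGU replicate 2 (0.11 to 0.58) and HYOU1 without siNT1 replicate 1 or siGGCAGU replicate 2 (-0.29 to -0.16). HYOU1 was also not called by DESeq2 (adjusted p = 0.0507), with upper quartile scaling (0.0519), with the replicate block (0.0546) or with the compared libraries alone (0.0912), and in the last of these neither were HSP90B1 (0.0772) and HERPUD1 (0.131). CALR (0.23 ± 0.10, adjusted p = 0.0824), EIF2AK3 (-0.36 ± 0.15, adjusted p = 0.0533), ERN1 (0.37 ± 0.18, adjusted p = 0.0919) and ATF6 (0.16 ± 0.10, adjusted p = 0.197) were not called. EIF2AK3 was called lower by edgeR with RLE scaling (adjusted p = 0.0453), no filter (0.0277) and protein-coding genes alone (0.0425). CALR, EIF2AK3 and ATF6 were called without siGGCAGU replicate 2 (0.37, -0.54 and 0.29) and ERN1 without siNT1 replicate 1 (0.52). The median log2 fold change was 0.13 in the amino acid arm and 0.18 in the ER chaperone arm, a difference of -0.04 which turned to 0.14 without siGGCAGU replicate 2, and 0.99 in the stress regulators, beside 0.02 for all genes.

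The test of siGGGGGC against siGGCAGU at 48 h gives the difference itself. Of the 42 members, 19 were higher and 13 lower with siGGGGGC, while 26.7% of all genes were higher and 27.6% lower. The amino acid arm held 7 higher and 5 lower of 14, the stress regulators 8 and 2 of 13, and the ER chaperone arm 3 and 6 of 12. The medians of the arms were 0.28 and -0.40, a difference of 0.68, which was 0.50 without siGGCAGU replicate 2.

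Between the siRNAs, 3 of the regulators raised by both were not called different. Their log2 difference was 0.04 for DDIT3 (95% interval -0.22 to 0.31, adjusted p = 0.786), -0.13 for ATF4 (-0.31 to 0.06, adjusted p = 0.247) and 0.19 for CEBPB (-0.02 to 0.40, adjusted p = 0.111). Others differed several-fold. ATF3 was 5.26-fold higher with siGGGGGC (log2 difference 2.40 ± 0.13, adjusted p = 7.49e-10), SESN2 3.59-fold (1.84 ± 0.13, adjusted p = 1.86e-08) and DDIT4 2.87-fold (1.52 ± 0.18, adjusted p = 3.59e-06). TRIB3 (1.43 ± 0.13, adjusted p = 2.83e-07) and CHAC1 (0.84 ± 0.20, adjusted p = 0.00183) were higher too. STC2 was lower by 1.90 ± 0.09 (adjusted p = 2.07e-10) and JDP2 by 1.18 ± 0.18 (adjusted p = 4.5e-05) on the log2 scale.

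The amino acid arm divided by gene. SLC7A5 (1.48 ± 0.14, adjusted p = 4.22e-07), MTHFD2 (1.14 ± 0.10, adjusted p = 1.85e-07), PHGDH (0.88 ± 0.11, adjusted p = 5.02e-06), PSAT1 (0.45 ± 0.12, adjusted p = 0.00443) and the low ASNS (1.64 ± 0.43, adjusted p = 0.00431) were higher with siGGGGGC. PSAT1 and ASNS lost their calls without siGGCAGU replicate 2 (0.24 and 1.20). ALDH1L2 (-1.78 ± 0.22, adjusted p = 6.75e-06), PCK2 (-0.78 ± 0.13, adjusted p = 0.000144) and PSPH (-0.61 ± 0.10, adjusted p = 7.57e-05) were lower. SLC3A2 had a difference of 0.12 (95% interval -0.06 to 0.31).

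Among chaperones, CRELD2 (-1.27 ± 0.14, adjusted p = 1.4e-06), CALR (-1.14 ± 0.11, adjusted p = 2.62e-07), HSPA5 (-1.06 ± 0.09, adjusted p = 1.38e-07) and HSP90B1 (-1.05 ± 0.14, adjusted p = 1.46e-05) were lower with siGGGGGC than with siGGCAGU. DNAJB9 (1.38 ± 0.13, adjusted p = 2.53e-07), XBP1 (0.43 ± 0.09, adjusted p = 0.000469) and EDEM1 (0.35 ± 0.11, adjusted p = 0.0114) were higher. EDEM1 lost its call without either siGGGGGC library at 48 h (0.34 and 0.35). ERN1 was higher (1.01 ± 0.17, adjusted p = 0.000131). EIF2AK3 had -0.27 (-0.62 to 0.07, adjusted p = 0.173), and the interval of ATF6 was -0.21 to 0.21 (adjusted p = 0.998).

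At 24 h, siGGGGGC moved fewer of these genes than at 48 h, and ATF4 mRNA was lower. Of 42 members, 5 rose and 7 fell, while 10.6% of all genes rose and 8.32% fell. Beyond a log2 fold change of 1, 1 member rose and 0 fell, against 1.55% and 2.17% of all genes. The roles held 3 rises and 1 fall in the amino acid arm, 1 and 2 in the stress regulators and 1 and 4 in the ER chaperone arm. The medians of the amino acid arm and the ER chaperone arm were -0.02 and -0.02, and that of all genes was 0.0035. With the libraries of 24 h fitted alone, 17 of 42 members and 5105 of 14869 genes were called. With the 10 libraries fitted together, 12 members and 3203 of 16905 genes were called. With all libraries 4 members of the amino acid arm and 5 of the ER chaperone arm were called. Fewer of each arm were called without any single library of 24 h, and fewer of all genes were called in the same fits.

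ATF4 had 7806 and 8020 normalised counts with siNT1 and 5448 and 4827 with siGGGGGC (log2 fold change -0.62 ± 0.09, adjusted p = 0.000184). ATF3 rose from 48.9 and 61.5 to 101 and 130 (1.07 ± 0.19, adjusted p = 0.000922). JDP2 fell from 88.3 and 89.0 to 47.6 and 52.9 (-0.82 ± 0.22, adjusted p = 0.0172). ATF3 was the member that rose beyond 1 at this time, and ATF4 was lower in both libraries. DDIT3 (-0.39 ± 0.17, adjusted p = 0.139), TRIB3 (-0.17 ± 0.14, adjusted p = 0.426) and CHAC1 (-0.25 ± 0.27, adjusted p = 0.571) were not called.

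In the amino acid arm at 24 h, PHGDH rose from 1784 and 1871 to 2347 and 2492 (0.41 ± 0.11, adjusted p = 0.0144), SLC3A2 from 4017 and 4079 to 5193 and 5125 (0.35 ± 0.09, adjusted p = 0.0116) and SHMT2 from 4521 and 5012 to 5760 and 6097 (0.31 ± 0.09, adjusted p = 0.0241). SLC7A1 fell from 1784 and 1813 to 1215 and 1143 (-0.61 ± 0.16, adjusted p = 0.016). The early changes of this arm were small, and each was seen in both libraries. SLC7A5 (0.29 ± 0.15, adjusted p = 0.196), PSAT1 (-0.09 ± 0.12, adjusted p = 0.644) and ASNS (-0.15 ± 0.47, adjusted p = 0.864) were not called. PHGDH, SLC3A2, SHMT2 and SLC7A1, and JDP2 and HERPUD1 of the other roles, lost their calls without any of the 4 libraries of 24 h in turn, with adjusted p-values of 0.0512 or more and the same signs.

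The chaperone changes were led by HSP90B1, from 10865 and 11540 to 6850 and 5823 (-0.82 ± 0.14, adjusted p = 0.000887). XBP1 fell from 1502 and 1432 to 992 and 967 (-0.58 ± 0.08, adjusted p = 0.000203) and HSPA5 from 18112 and 20458 to 14237 and 13912 (-0.45 ± 0.09, adjusted p = 0.00276). HERPUD1 fell from 653 and 694 to 456 and 496 (-0.50 ± 0.14, adjusted p = 0.0176), and DNAJB9 rose from 220 and 232 to 341 and 329 (0.57 ± 0.14, adjusted p = 0.00936). HSP90B1 and XBP1 were below the controls in both libraries at this time. DNAJB9 lost its call without siNT1 replicate 1 or siGGGGGC replicate 1 at 24 h (0.53 and 0.54), and HSPA5 without siNT1 replicate 2 (-0.36). CALR (0.01 ± 0.10, adjusted p = 0.954), EIF2AK3 (-0.05 ± 0.17, adjusted p = 0.879), ERN1 (-0.49 ± 0.22, adjusted p = 0.135) and ATF6 (-0.09 ± 0.10, adjusted p = 0.597) were not called.

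Whether the siGGGGGC effect differed between 48 h and 24 h was tested as an interaction. It was more positive at 48 h in 18 of 42 members and more negative in 4, while 13.4% and 15.2% of all genes were called so. All 9 stress regulators called had an effect that was more positive at 48 h, led by DDIT4 (difference of log2 fold changes 3.44 ± 0.37, adjusted p = 8.81e-06), DDIT3 (2.67 ± 0.22, adjusted p = 7.98e-07) and ATF3 (2.64 ± 0.24, adjusted p = 1.85e-06). The effect on ATF4 turned from lower to higher (1.01 ± 0.12, adjusted p = 3.24e-05). In the amino acid arm 5 members were called, all more positive, led by CTH (0.76 ± 0.27, adjusted p = 0.0436), SLC3A2 (0.76 ± 0.12, adjusted p = 0.000335) and SLC7A5 (0.70 ± 0.20, adjusted p = 0.0165). In the ER chaperone arm 4 were more negative, led by CALR (-0.93 ± 0.15, adjusted p = 0.000278), HSP90B1 (-0.61 ± 0.20, adjusted p = 0.0318) and HYOU1 (-0.54 ± 0.12, adjusted p = 0.00433), and 3 were more positive, which were DNAJB9 (1.18 ± 0.19), HERPUD1 (0.98 ± 0.18) and XBP1 (0.39 ± 0.12, adjusted p = 0.0222). ERN1 had 1.87 ± 0.27 (adjusted p = 0.000135). The difference of the arm medians was 0.83. Fewer members of the amino acid arm were called without siNT1 replicate 2 at 24 h or siGGGGGC replicate 2 at 48 h. Fewer of the ER chaperone arm were called without either siNT1 library or siGGGGGC replicate 1 at 24 h, or siGGGGGC replicate 2 at 48 h. In each of these fits fewer of all genes were called too. The call of CTH was lost without 7 of the 8 libraries in turn, that of XBP1 without 6, HSP90B1 without 5 and SLC7A5 without 3, with the same signs.

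**Figure D4:**
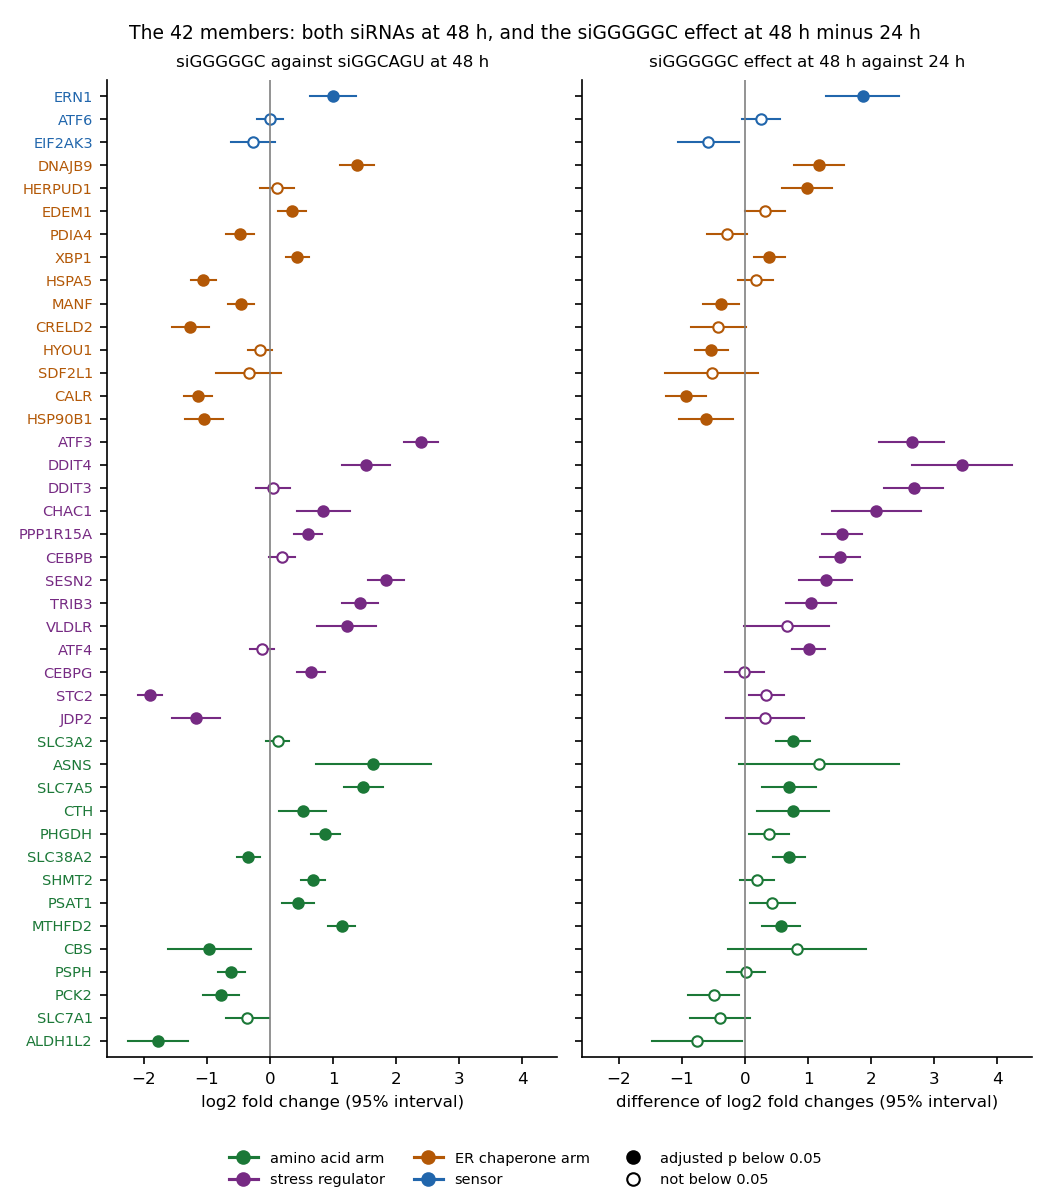
Log2 difference of each of the 42 members (points, filled where the adjusted p was below 0.05) with its 95% interval (lines), for siGGGGGC against siGGCAGU at 48 h (left) and for the siGGGGGC effect at 48 h minus that at 24 h (right), in the order of the plot of fold changes. ATF3, DDIT4 and SESN2 lie to the right in both panels and CALR to the left, while the interval of DDIT3 between both siRNAs, -0.22 to 0.31, includes 0.

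The control cells also changed between 24 h and 48 h. In siNT1 cells 4 members rose and 9 fell, while 9.37% of all genes rose and 7.2% fell. The median log2 fold change was -0.22 in the amino acid arm, -0.22 in the stress regulators and -0.08 in the ER chaperone arm. That of all genes was -0.0039. HSPA5 fell from 18112 and 20458 to 11585 and 10656 normalised counts (log2 fold change -0.79 ± 0.09, adjusted p = 0.000142), PHGDH fell by 0.61 ± 0.11, DDIT3 by 0.63 ± 0.16, ATF4 by 0.54 ± 0.09, PSAT1 by 0.53 ± 0.12, MTHFD2 by 0.51 ± 0.10, SHMT2 by 0.37 ± 0.09, XBP1 by 0.40 ± 0.08 and PPP1R15A by 0.38 ± 0.11. PSAT1, MTHFD2 and XBP1 lost their calls without either siNT1 library of 24 h, DDIT3 without siNT1 replicate 2 at 24 h or replicate 1 at 48 h, and PPP1R15A without any siNT1 library but replicate 2 at 48 h. SLC7A1 (0.63 ± 0.16, adjusted p = 0.0155), SESN2 (0.45 ± 0.14, adjusted p = 0.0364), SLC38A2 (0.32 ± 0.08, adjusted p = 0.0193) and STC2 (0.28 ± 0.09, adjusted p = 0.0471) rose. With all libraries 13 members were called. Fewer were called without either siNT1 library of 24 h or without siNT1 replicate 1 at 48 h, and fewer of all genes were called in the same fits. SLC7A1 without siNT1 replicate 1 at 48 h had 0.23. STC2 lost its call without any of the 4 libraries in turn, by DESeq2 (adjusted p = 0.0536), with upper quartile scaling (0.0973), with protein-coding genes alone (0.0567) and with the replicate block (0.0636). SESN2 lost its call by DESeq2 (0.0544), with upper quartile scaling (0.0521), with the compared libraries alone (0.0547) and without any siNT1 library but replicate 2 at 48 h, and so did SLC7A1 and SLC38A2 without those 3 libraries.

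ATF4 mRNA was highest in the siNT1 libraries of 24 h (7806 and 8020), overlapped those of siGGCAGU at 48 h (7863 and 7704), and was followed by siGGGGGC at 48 h (7068 and 7203), siNT1 at 48 h (5237 and 5677) and siGGGGGC at 24 h (5448 and 4827), of which the last 2 groups overlapped. The rise with both siRNAs at 48 h was thus from a control level that had fallen since 24 h. The same was true of DDIT3 and PPP1R15A with both siRNAs, of PHGDH, PSAT1, MTHFD2 and SHMT2 with siGGGGGC and of HSPA5 with siGGCAGU.

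As siRNA guides act on mRNAs through their seed, the longest annotated 3′ UTR of each member (GENCODE release 44, hg38) was searched for the reverse complement of each seed. GCCCCC, the match of siGGGGGC, stood in 17 of 43 members, against 31.6% of the protein-coding genes tested. In the UTR of the Ensembl canonical transcript it stood in 16, against 29.4%. ACTGCC, the match of siGGCAGU, stood in 13 members (36.5% of genes) or in 12 with canonical transcripts (34.2%). Sites are given for some of the members whose mRNA changed. Of these, ATF3 rose with siGGGGGC at 48 h and HSPA5 with siGGCAGU, and the others fell. Not shown are the GCCCCC sites of SLC7A5, CEBPB, SESN2, VLDLR and ERN1, which rose at 48 h, and of HYOU1, which fell. Also not shown are the ACTGCC sites of STC2, JDP2 and CBS, which rose with siGGCAGU, and of SLC7A1, SESN2 and VLDLR, which fell. Each site is written on the strand of the gene and from the canonical transcript, with the match in capitals.
HSP90B1, siGGGGGC, chr12:103947735-103947764, plus strand: cttgttttggatGCCCCCtaatccccttct
CALR, siGGGGGC, chr19:12944369-12944398, plus strand: cctttctcccctGCCCCCaggactgggcca
SLC7A1, siGGGGGC, chr13:29514419-29514448, minus strand: gccccgagggacGCCCCCagaggaccggga
ALDH1L2, siGGGGGC, chr12:105020652-105020681, minus strand: aataggccatatGCCCCCacattcataccc
JDP2, siGGGGGC, chr14:75469972-75470001, plus strand: cggggccctgatGCCCCCacccacctcggt
ATF3, siGGGGGC, chr1:212619806-212619835, plus strand: atgttccagatgGCCCCCagctggtgtcct
HSPA5, siGGCAGU, chr9:125235852-125235881, minus strand: tatctttctaaaACTGCCtttctggtggct
XBP1, siGGCAGU, chr22:28795117-28795146, minus strand: cttgactattacACTGCCtggaggatagca

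Members with a match went both ways. With siGGGGGC at 48 h, 15 members with a canonical match of GCCCCC were tested, and 6 rose and 6 fell, with a median log2 fold change of 0.08. Of the 27 members without a match, 18 rose and 6 fell, with a median of 0.39. Of all genes 27.8% rose and 27.5% fell, and members with and without a match were not tested against each other. SLC7A1 holds 4 copies, and ALDH1L2, JDP2 and CEBPB 3 each. The first 3 of these fell at 48 h, as did HSP90B1 and CALR with 1 copy each, whereas CEBPB rose by 1.45 and ATF3, with 1 copy, by 3.71 on the log2 scale. The copy of HSP90B1 is in its canonical 3′ UTR and not in the longest one. ATF4 and PPP1R15A, counted here as without a match, hold 2 copies and 1 in their longest 3′ UTR and 0 in the canonical one. ERN1, which rose, holds 2 copies in its canonical 3′ UTR and 4 in the longest one. At 24 h, the medians were -0.09 with a match and -0.06 without, and 3 of 15 and 4 of 27 members fell. Rises at 24 h were 1 of 15 and 4 of 27, while 10.6% of all genes rose and 8.32% fell. With siGGCAGU, 4 of the 11 members tested that hold ACTGCC rose and 4 fell (median 0.37), and of the 31 without 15 rose and 6 fell (median 0.34). Of all genes, 27.8% rose and 24.9% fell with siGGCAGU. HSPA5 holds 3 copies of ACTGCC and rose, and XBP1 holds 1 and fell.

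Other genes of both pathways were counted in the same way from a list of each. Of 29 further genes of the integrated stress response tested, 10 rose and 10 fell with siGGGGGC at 48 h, 7 and 12 with siGGCAGU, and 4 and 4 with siGGGGGC at 24 h. Of all genes, 27.8% rose and 27.5% fell in the first of these comparisons, 27.8% and 24.9% in the second, and 10.6% and 8.32% in the third. SLC7A11, the cystine importer, rose with both siRNAs, from 3351 and 3335 normalised counts with siNT1 at 48 h to 17447 and 16230 with siGGGGGC (2.33 ± 0.09, adjusted p = 5.44e-11) and 31353 and 28021 with siGGCAGU (3.15 ± 0.10, adjusted p = 4.86e-12). GDF15, a stress-induced cytokine, rose by 1.76 ± 0.17 and 1.82 ± 0.17. PYCR1, which makes proline, fell from 214 and 193 to 20.1 and 33.1 with siGGGGGC and to 64.1 and 83.3 with siGGCAGU. The list did not follow a single direction. SHMT1 fell by 1.31 ± 0.14 with siGGGGGC and by 1.93 ± 0.15 with siGGCAGU. ATF5, a factor translated like ATF4, fell with siGGGGGC (-1.69 ± 0.20) and had 0.11 ± 0.17 with siGGCAGU. SLC1A4, a transporter of neutral amino acids, went opposite ways, with 1.20 ± 0.20 and -1.20 ± 0.26. With siGGCAGU, OMA1, a mitochondrial protease that relays stress to the response, rose by 1.17 ± 0.12 and SLC1A5, a glutamine transporter, fell by 0.71 ± 0.09. At 24 h, siGGGGGC raised SLC7A11 (0.68 ± 0.09), EIF2B2 (0.50 ± 0.10) and EIF2B5 (0.40 ± 0.08) and lowered ATF5 (-0.96 ± 0.22), PYCR1 (-0.70 ± 0.22) and EIF2AK4 (-0.45 ± 0.09). EIF2B2 and EIF2B5 are subunits of the exchange factor of eIF2, and EIF2AK4 (GCN2) is the kinase that senses amino acid shortage.

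Of 29 further ER genes tested, 10 rose and 8 fell with siGGGGGC at 48 h, 7 and 8 with siGGCAGU, and 1 and 5 with siGGGGGC at 24 h, against the same shares of all genes, and no test was made of the list. With siGGGGGC at 48 h, ERO1B (1.14 ± 0.20), HSPA13 (0.99 ± 0.10) and SELENOS (0.98 ± 0.10) rose most, and CREB3L2 (-1.81 ± 0.22), ATF6B (-1.61 ± 0.15) and UGGT1 (-0.87 ± 0.08) fell most by the naming rule. With siGGCAGU, SELENOS (0.78 ± 0.10), SYVN1 (0.70 ± 0.20) and DERL2 (0.52 ± 0.10) rose, and ERO1A (-0.64 ± 0.10), DNAJB11 (-0.60 ± 0.13) and HSPA13 (-0.52 ± 0.10) fell. SELENOS, SYVN1 and DERL2 are parts of the machinery of ER-associated degradation. At 24 h, WFS1 rose (1.08 ± 0.26) and CREB3L2 (-0.80 ± 0.23), ATF6B (-0.57 ± 0.17) and SEC24D (-0.51 ± 0.13) fell with siGGGGGC. The median log2 fold change of these 29 genes was 0.08 with siGGGGGC at 48 h and 0.09 with siGGCAGU. That of the 29 further genes of the integrated stress response was -0.08 and -0.11. The further lists thus did not part in the direction of the 2 arms with siGGGGGC at 48 h.

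The direct comparison of the siRNAs at 48 h called 10 of the 29 further genes of the integrated stress response higher and 10 lower with siGGGGGC, led by SLC1A4 (log2 difference 2.39 ± 0.24), GPT2 (1.14 ± 0.15) and SHMT1 (0.62 ± 0.16), and by ATF5 (-1.80 ± 0.21), PYCR1 (-1.48 ± 0.29) and EIF2AK4 (-1.35 ± 0.09). It called 7 of the further ER genes higher and 7 lower, led by HSPA13 (1.51 ± 0.10), SELENOK (0.97 ± 0.09) and DNAJB11 (0.71 ± 0.13), and by CREB3L2 (-1.31 ± 0.23), SEC24D (-1.14 ± 0.13) and ATF6B (-1.09 ± 0.16). The siGGGGGC effect was more positive at 48 h than at 24 h in 6 and more negative in 9 of the former list, with SLC7A11 at 1.65 ± 0.13 and PYCR1 at -2.22 ± 0.34, and in 8 and 6 of the latter. In siNT1 cells, 2 of the former rose and 2 fell between 24 h and 48 h, and 4 and 2 of the latter. Of all genes, 26.7% were higher and 27.6% lower in the first of these comparisons. The shares more positive and more negative at 48 h were 13.4% and 15.2% in the second. In the third, 9.37% of all genes rose and 7.2% fell.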

How the data were processed

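RNA-seq was made from total RNA depleted of ribosomal RNA, in 10 libraries of 5 groups. The authors trimmed reads with Trimmomatic, aligned them to hg38 with TopHat or STAR, and counted reads in the exons of each Ensembl gene by HTSeq. The submitters' processing notes also name Bowtie2 and DESeq2. The authors deposited raw counts per gene for each library, whole numbers with no normalization. GENCODE release 44 held 98.9% of the 58395 identifiers, and from it symbols, coordinates, exon lengths and 3′ UTRs were taken. Deposited tables of the authors' own comparisons, with mean counts, log2 fold changes and p-values, were not used.

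Genes were tested with the quasi-likelihood test of edgeR 4.0.16 (R 4.3.3) on raw counts, with TMM scaling, fitting the 10 libraries together, 1 coefficient for each of the 5 groups, which leaves 5 residual degrees of freedom. filterByExpr kept 16905 genes, with Benjamini-Hochberg adjustment over all of them. A call is an adjusted p below 0.05. SE is the log2 fold change divided by the root of F. Normalised counts are scaled to a library of 25982985. Total counts ranged from 19781445 to 42428986, and low genes such as ASNS are the least precise.

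The members and lists were chosen with earlier results of these data known. Named were 16 core members in each siRNA comparison and, in each role or list, up to 3 rises and 3 falls by size among genes called, with libraries of both groups that did not overlap and a mean of at least 50 normalised counts. Alternatives were DESeq2 1.42.0, RLE or upper quartile scaling, no filter, a mean count of at least 50, protein-coding genes, the compared libraries alone, the replicate number as a block and each library left out. The ends of the members' proteins were not analysed here.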

Additional observations from a re-analysis of the deposited data

Results flagged for a closer look

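The effect of siGGGGGC differed between 24 h and 48 h, by the interaction term of the edgeR fit, in 22 of the 42 members tested. It was more positive at 48 h in 18 and more negative in 4, against 13.4% and 15.2% of all genes. The values are differences of log2 fold changes, 48 h minus 24 h. Among the stress regulators they were 3.44 for DDIT4, 2.67 for DDIT3, 2.64 for ATF3, 2.09 for CHAC1, 1.54 for PPP1R15A, 1.50 for CEBPB, 1.28 for SESN2, 1.05 for TRIB3 and 1.01 for ATF4. In the amino acid arm they were 0.76 for CTH, 0.76 for SLC3A2, 0.70 for SLC7A5, 0.69 for SLC38A2 and 0.57 for MTHFD2. In the ER chaperone arm they were 1.18 for DNAJB9, 0.98 for HERPUD1 and 0.39 for XBP1, and -0.93 for CALR, -0.61 for HSP90B1, -0.54 for HYOU1 and -0.37 for MANF. The sensor ERN1 had 1.87. ATF4 and HERPUD1 were called lower at 24 h and higher at 48 h. The medium was changed at 24 h in all wells kept for 48 h, and its part in these differences cannot be told apart from that of time.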

How the results depend on the processing

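Most values kept their direction and side of the threshold under the other tools, scalings and filters, where 984 gene values did, 29 lost and 7 gained a call and 7 changed sign, and with single libraries left out, where 443 did, 109 lost and 5 gained a call and 11 changed sign. With the compared libraries alone, the stress regulators called with siGGGGGC at 24 h numbered 6 (3 in the joint fit), and the ER chaperone members called with siGGCAGU 3 (8). In siNT1 cells over time, DESeq2 called 3 stress regulators (5), and upper quartile scaling, a mean count of at least 50 and protein-coding genes alone each gave 4 ER chaperone calls (2). A mean count of at least 50 gave 0.742 for the difference of arm medians between times (0.83). CALR at 24 h (0.01) became -0.0265 with upper quartile scaling, -0.0024 with a mean count of at least 50, -0.0092 with protein-coding genes and -0.0053 with the compared libraries alone. ATF6 between the siRNAs became 0.0237 with DESeq2, 0.0238 with RLE scaling and 0.0003 with the compared libraries alone. Without a filter, the median of all genes between times moved to 0.1427. The cause was not tested, beyond fewer libraries or other genes entering a fit.

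With single libraries left out, members called ranged as follows. The number of all genes called changed in these fits as well. For siGGGGGC at 24 h, the amino acid arm held 0 to 1 and the ER chaperone arm 3 to 4. For siGGGGGC at 48 h, the ER chaperone arm held 5 to 9. For siGGCAGU, the amino acid arm held 5 to 10. For the effect between times, the amino acid arm held 3 to 6 and the ER chaperone arm 4 to 7. For siNT1 over time, the amino acid arm held 1 to 7, the stress regulators 1 to 4 and the ER chaperone arm 1 to 3. The difference of arm medians ranged from -0.0851 (without siGGGGGC replicate 2) to 0.0767 at 24 h, 0.6565 to 0.8272 with siGGGGGC at 48 h, -0.1127 to 0.1415 with siGGCAGU, 0.4957 to 0.7217 between the siRNAs and 0.7133 to 0.9009 between times. Genes that changed sign were not called in the joint fit. At 24 h ASNS ranged from -0.5056 to 0.2648, PSAT1 from -0.2058 to 0.0139, CALR from -0.066 to 0.0869 and EIF2AK3 from -0.2675 to 0.1418. With siGGCAGU PSAT1 ranged from -0.3245 to 0.1008 and PHGDH from -0.2478 to 0.0694. Between the siRNAs DDIT3 ranged from -0.0668 to 0.1494 and ATF6 from -0.133 to 0.1396.

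The replicate numbers did not pair the samples, with correlations of deviations from -0.089 to 0.027. With the replicate block, members called were 12 at 24 h, 35 with siGGGGGC at 48 h (36 without the block), 28 with siGGCAGU (29), 32 between the siRNAs, 21 between times (22) and 12 in siNT1 cells (13). The difference of arm medians with siGGGGGC at 48 h was 0.734 in that fit. Low counts limit ASNS, CBS and NUPR1.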
